A study of Homo sapiens with 6 samples.

Results

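The genes described here were 42 genes of heterogeneous nuclear ribonucleoproteins (hnRNPs) and related RNA-binding proteins. They were chosen by name, with earlier results of these lists known. Their binding sites were taken from the cluster lists as the clusters whose annotated gene was 1 of the 42 and that lay within that gene on its strand. Of 16269 clusters in 6 libraries, 60 carried a member's name and 58 met both conditions, in 18 of the 42 genes. The other 2 were an intergenic cluster near HNRNPL and a cluster antisense to RALY, each in 1 A1 library. Joining clusters of 1 strand that shared a nucleotide or more gave 32 regions.

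The lists came from PAR-CLIP, in which 4-thiouridine is built into cellular RNA, a protein is cross-linked to that RNA by ultraviolet light and immunoprecipitated, and the cross-linked uridines are read as T-to-C substitutions. The cells were HEK293T, a human embryonic kidney line, transfected with myc-tagged hnRNP A1 and precipitated with a rabbit polyclonal antibody to the tag, so the lists show where the tagged protein was cross-linked, beside an untagged protein that the cells also make. RNA was recovered from 3 protein bands with 2 libraries each. A1dm was the monomeric band of the double mutant R75D/R88D, and A1 the monomeric band of wild-type (WT) protein. A1-HMW was the slower band of WT protein, which the paper describes as possibly dimeric. Both WT bands came from precipitates of the same construct, and whether same-numbered libraries of these bands shared a precipitate is not given in the sources used here. All 3 groups shared the cell line, the tag, the antibody and the 4-thiouridine. There were 232 and 596 clusters in the A1dm libraries, 671 and 865 in those of A1-HMW and 5805 and 8100 in those of A1. The score column was 0 in every line, so these lists give neither reads per cluster nor sequencing depth. The study reports read and T-to-C counts for its own clusters, which were not used here. Where a short list lacks a cluster, too few reads and no binding cannot be told apart from these lists. Expression of the genes was not measured.

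hnRNPs coat nascent transcripts in the nucleus and influence which splice sites are used, how RNA is exported and how long it lasts. hnRNP A1 binds RNA through a pair of RNA recognition motifs and is best known for repressing the inclusion of exons. Many RNA-binding proteins bind transcripts of their own gene or of their relatives, often in introns beside regulated exons or in 3′ untranslated regions, and such binding is a common way for these proteins to adjust their own amounts.

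The sequences that carry the account are those of the sites found in both libraries of a group or in clusters of at least 2 groups, here called recurring. There were 14 such regions, in 11 genes. Each line gives the bases common to every library that held the site, read 5′ to 3′ on the strand of the transcript from the GRCh37 (hg19) reference, with the longest unbroken run of purines (A or G) in capitals.
FUBP1, chr1:78426298-78426318, minus strand: gaatGAGGAAAGGAAGGAAAA
HNRNPDL, chr4:83350251-83350271, minus strand: gattGGAGGGAAGAGGAAAGt
HNRNPL, chr19:39327591-39327613, minus strand: aatGAAGGAAGAGAAGGAGAAAc
HNRNPM intron, chr19:8523484-8523505, plus strand: aggttGAGGAAGAAAGGAAGGt
HNRNPM exon, chr19:8520312-8520334, plus strand: atGAGAAGAGGAAGGAGAAAAAc
EWSR1, chr22:29684032-29684053, plus strand: AGAAAAGGAAAGGGGGAAAAAt
SYNCRIP, chr6:86350821-86350843, minus strand: GAGGGAGGGAAGAAGAGAAGGtt
HNRNPR, chr1:23637332-23637355, minus strand: agtAAGAGGAAGAGGAGGAGGAAG
RBFOX2 3′ untranslated, chr22:36136702-36136723, minus strand: ttAAGGAGGAGAAAGGGGAAGc
RBFOX2 intron, chr22:36367556-36367578, minus strand: AGAGAAGAGAGGGAGGAAGGAAt
PTBP2, chr1:97277946-97277969, plus strand: GAAGGGAGAAAAAGAGctagggat
RALY, chr20:32617389-32617417, plus strand: GGGGAAGAGAGAGAAAGAGGGGttgagag
TAF15, chr17:34178446-34178469, plus strand: gagtAAGAAAAAAAGAGGGAGGAt
TAF15, chr17:34179729-34179753, plus strand: gttAGAGGAGAGAAAAGAGAGGGAc

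All 14 sequences were mostly purine, with 1 to 3 thymines, the base at which 4-thiouridine can cross-link. Their longest purine runs measured 16 to 22 nucleotides, and 6 of the 14 held a single thymine. Each of the 14 sequences occurred once in the reference genome when both strands were searched for exact matches, so none was shared with a paralog or pseudogene over its full length.

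Single clusters were similar to the recurring sites. Of the 58 member clusters, 56 (96.6%) held a purine run of at least 12 nucleotides, and their mean purine content was 89.4%. Over every cluster with a reference sequence the values were 94.3% and 89.7%, so the sites in these genes looked like the rest of the lists. The member clusters without such a run, those of HNRNPA1 and HNRNPC, were not among the recurring sites. The letters GAGGAA, searched on the transcript strand, were in 24 member clusters (41.4%) and in 32.8% of every cluster. GGAAG, which can overlap GAGGAA, was in 36 (62.1%) and in 50.1% of every cluster. TAGG, the DNA letters of the UAGG element known for hnRNP A1, was in 6 (10.3%) and in 4.57% of every cluster. The 58 clusters lay in 32 regions, and a site counted once for each library that held it. The FUBP1 site alone gave 5 of the 24 clusters with GAGGAA. These percentages are thus not shares of separate sites, and their differences from every cluster were not tested. Among the printed sequences TAGG was in 1, at the end of the PTBP2 site.

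**Figure D1:**
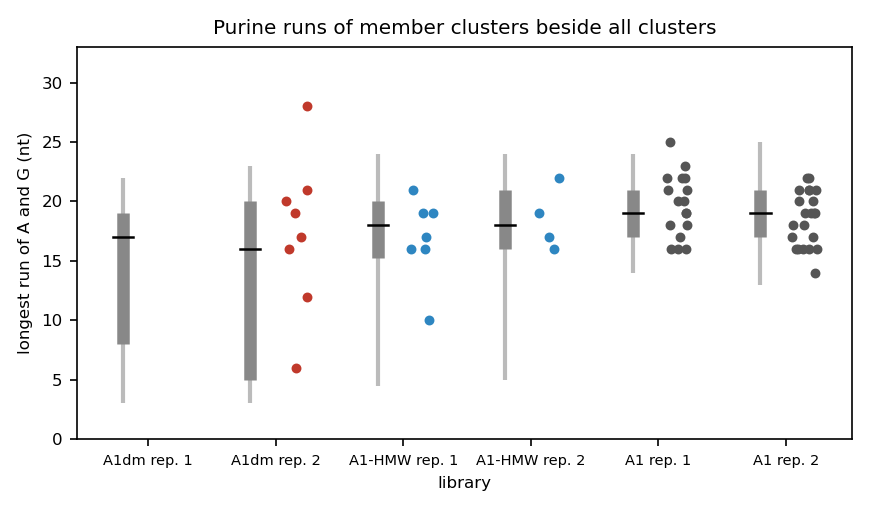
Longest run of A and G in nucleotides (vertical axis) for each cluster in a member gene (coloured points) in each library (horizontal axis). The grey bars beside them show every cluster of the same library, with the thin line from the 5th to the 95th percentile, the thick line from the 25th to the 75th and the black mark at the median, which lay between 16 and 19. The 2 points under 12 are HNRNPA1 in A1dm replicate 2 (6) and HNRNPC in A1-HMW replicate 1 (10).

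The plot of purine runs shows that the lists themselves differed. In A1dm replicate 2, 7 of 8 member clusters held a run of at least 12, while 58.1% of every cluster in that library did. In A1-HMW replicate 1 it was 6 of 7, against 84.5% of every cluster, and in A1-HMW replicate 2 all 4, against 87.0%. All 17 and all 22 member clusters of the A1 libraries held such a run, as did 98.1% and 96.6% of every cluster there.

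The sites were spread unevenly over libraries. A1dm libraries had 0 and 8 member clusters, A1-HMW libraries 7 and 4, and A1 libraries 17 and 22. As shares of each library these were 0% of 232 (95% Wilson interval 0 to 1.63%) and 1.34% (0.682 to 2.63%) in A1dm. A limit of 3 counts for the count of 0 would be 1.29%. They were 1.04% (0.506 to 2.14%) and 0.462% (0.180 to 1.18%) in A1-HMW, and 0.293% (0.183 to 0.469%) and 0.272% (0.179 to 0.411%) in A1. The intervals cover counting error only. Both A1-HMW shares lay above both A1 shares, while the A1dm shares lay on either side of them.

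Mean shares were 0.671 ± 0.949% in A1dm, 0.753 ± 0.411% in A1-HMW and 0.282 ± 0.0150% in A1 (SD, n = 2 each). The A1-HMW share was 0.471 percentage points above that of A1 (exact two-sided permutation test over libraries, p = 0.333, the smallest that 2 against 2 can give), or 0.180 points without A1-HMW replicate 1. The A1dm share was 0.389 points above that of A1 (exact permutation test, p = 1.0) and differed by -0.0817 points from that of A1-HMW (exact permutation test, p = 1.0). With 2 libraries against 2, none of the 3 comparisons could reach a p of 0.05, and the A1dm differences were smaller than the spread between the A1dm libraries. Without A1dm replicate 2 the difference from A1 was -0.282 points, so its direction rested on that library. The difference between A1dm and A1-HMW was 0.589 points without A1dm replicate 1 and 0.209 points without A1-HMW replicate 1, so its direction also depended on single libraries.

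**Figure D2:**
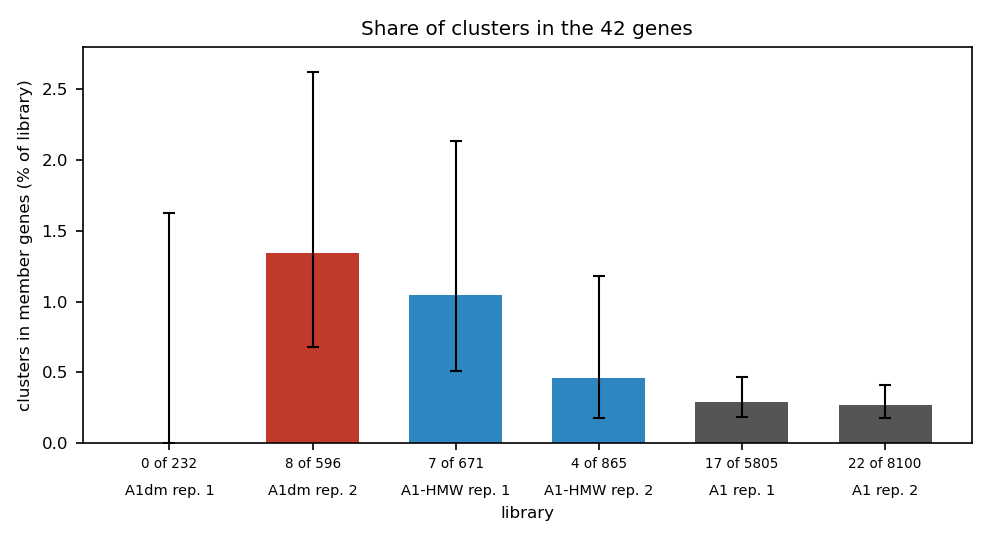
Clusters in the 42 genes as a percentage of all clusters of the library (vertical axis), for each library (horizontal axis), with the numbers of clusters under the bars. Error bars are 95% Wilson intervals, which overlap between A1dm replicate 1 and every other library. The bar for A1dm replicate 1 is at 0.

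At least 1 cluster was found in 7 of the 42 genes (16.7%) in A1dm, all through replicate 2, where 2.02% of 20175 protein-coding genes had one. In A1-HMW it was 8 genes (19.0%; 3.10% of protein-coding genes), or 4 without replicate 1, and in A1 16 genes (38.1%; 16.1%). Over all libraries 18 members (42.9%) had a cluster, and 17.1% of protein-coding genes did. Clusters in both libraries of a group were found for 0 members in A1dm (0.139% of protein-coding genes), for 3 in A1-HMW (FUBP1, HNRNPL and HNRNPM; 0.555%) and for 10 in A1 (7.98%). The protein-coding genes include those that HEK293T cells do not express, so the shares describe different kinds of gene sets and were not tested.

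A list of 39 other RNA-binding protein genes gave a nearer comparison. Of these, 2 had a cluster in A1dm (5.13%), 6 in A1-HMW (15.4%), 15 in A1 (38.5%) and 16 in any library (41.0%). The member genes and the other RNA-binding protein genes thus had clusters about as often in A1 and over all libraries.

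Per length of gene, the members held 0 and 2.97 clusters per megabase of gene body in A1dm, 2.97 and 1.86 in A1-HMW and 9.67 and 10.0 in A1. Every protein-coding gene together held 0.131 and 0.317 in A1dm, 0.374 and 0.456 in A1-HMW and 3.06 and 4.03 in A1. These densities count every cluster in the gene, whatever name it carried. The protein-coding genes again include those that HEK293T cells do not express. Densities were not computed for the list of other RNA-binding protein genes, and the differences were not tested. Members with a cluster by the naming rule had a median gene length of 44.8 kb, against 21.3 kb for the 24 without.

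The regions shared between groups were few and can be named. Of the 32 regions, 3 had clusters in all 3 groups (FUBP1, HNRNPDL and EWSR1) and 6 in a pair of groups. The other 23 were seen in 1 group, of which 20 in A1, 1 in A1-HMW and 2 in A1dm. By library, 18 regions were in 1, 7 in 2, 3 in 3, 3 in 4 and 1, that of FUBP1, in 5. No region was in all 6, since A1dm replicate 1 held none.

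**Figure D3:**
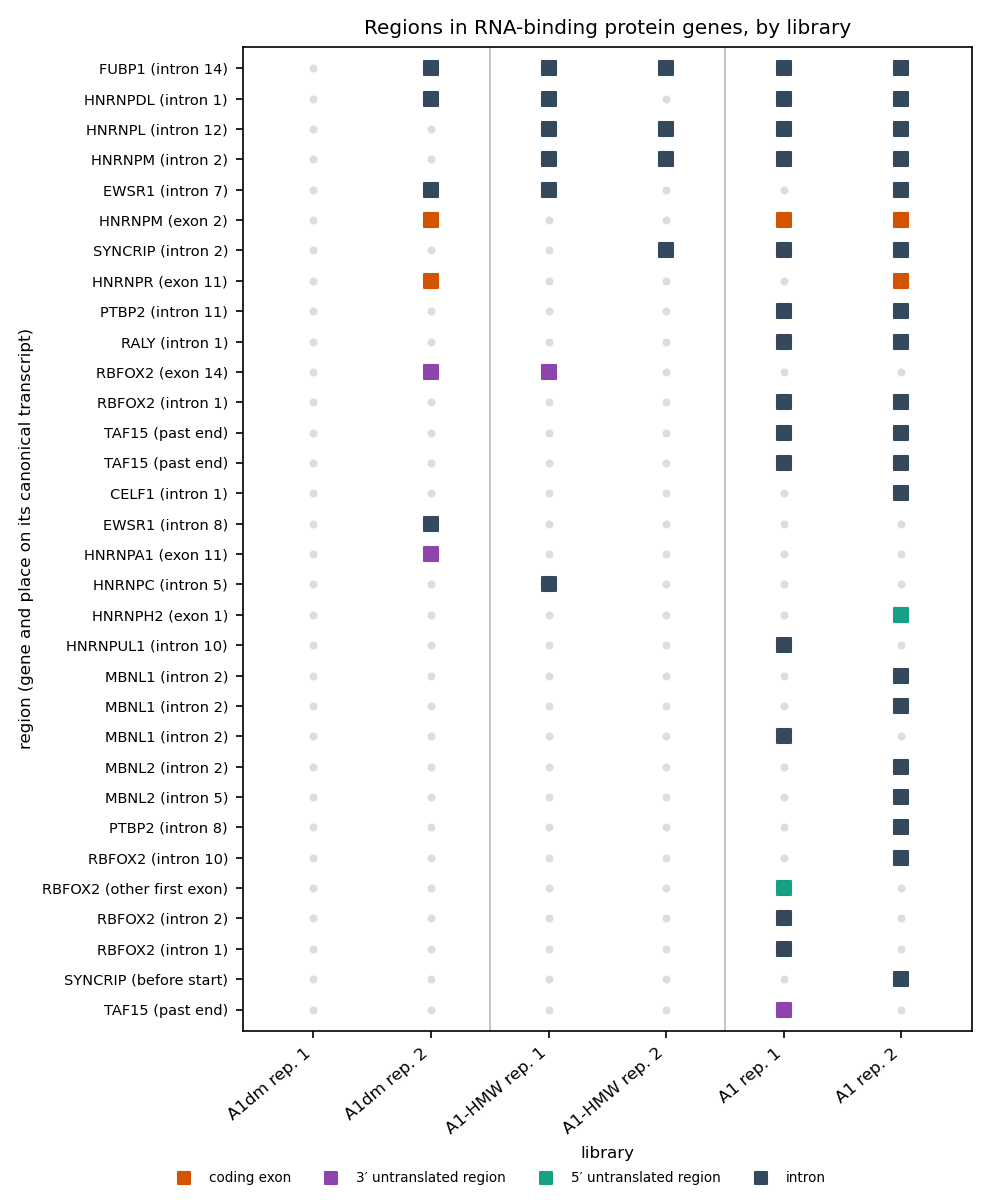
Presence of each of the 32 regions (rows, with the gene and the place on its canonical transcript) in each library (columns). A square marks a cluster, coloured by its place in protein-coding transcripts (coding exon, 3′ or 5′ untranslated region, or intron), and a small grey point marks none. The FUBP1 row is filled in 5 of 6 libraries, and 18 rows in 1.

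FUBP1, which encodes a single-strand nucleic acid binding protein known for its part in MYC transcription and in splicing, had 1 cluster at the same place in A1dm replicate 2, in both A1-HMW libraries and in both A1 libraries, and none in A1dm replicate 1. The region, 27 nucleotides long, lay in intron 14 of the 20-exon canonical transcript, 116 nucleotides before exon 15. It was also within the first exon of a FUBP1 transcript with no defined coding sequence. FUBP1 had no other cluster.

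HNRNPDL, a close relative of hnRNP D, had its site in A1dm replicate 2, A1-HMW replicate 1 and both A1 libraries. This site lay in intron 1 of 7, 128 nucleotides after exon 1. EWSR1, a FET family protein known for its fusions in Ewing sarcoma, had a site in intron 7 in A1dm replicate 2, A1-HMW replicate 1 and A1 replicate 2. That site lay 541 nucleotides before exon 8. A separate EWSR1 region, chr22:29684831-29684854, lay 55 nucleotides after exon 8 and was in A1dm replicate 2 alone. Exon 8 of EWSR1 was thus flanked by both of the gene's regions, 777 nucleotides apart.

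HNRNPL, which binds CA repeats and regulates splicing, had a cluster in both A1-HMW libraries and both A1 libraries and in neither A1dm library. The site lay in intron 12, 170 nucleotides before the last exon, in the final exon of a retained-intron transcript of the gene, and overlapped an annotated readthrough gene on the same strand. The intron 2 site of HNRNPM, a splicing regulator that binds GU-rich RNA, had the same pattern over libraries. It lay 3025 nucleotides after exon 2, the largest distance to an exon among the intronic regions that met the naming rule and had clusters of at least 2 groups. SYNCRIP, also called hnRNP Q, had a site in A1-HMW replicate 2 and both A1 libraries, 165 nucleotides after exon 2. SYNCRIP also had a region 179 nucleotides before the canonical start, in A1 replicate 2 alone, and both SYNCRIP regions overlapped a readthrough gene on the same strand.

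The 2 coding sites were shared by A1dm and A1 and absent from both A1-HMW lists. The HNRNPM coding site, in exon 2 of 16, was in A1dm replicate 2 and both A1 libraries, and lay 3149 nucleotides before the intron 2 site. HNRNPM thus had an exonic site in A1dm and A1 and an intronic one in A1-HMW and A1. The HNRNPR site, in the last of 11 exons, was in A1dm replicate 2 and A1 replicate 2. HNRNPR and SYNCRIP are paralogs that bind RNA through related recognition motifs, and their recurring sites lay in different parts of the genes. Since the A1dm lists held 8 clusters in these genes, all in 1 library, and the A1-HMW lists 11, the absence of a cluster at a given site was not tested between groups.

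RBFOX2, a splicing regulator that reads the element UGCAUG, had most regions of the 42 genes, 6 regions with 8 clusters. Its 3′ untranslated site in exon 14 was in A1dm replicate 2 and A1-HMW replicate 1 and in neither A1 library. It was the one region that A1dm and A1-HMW shared without A1. The intron 1 site was in both A1 libraries, and the other 4 regions were each in 1 A1 library. At 290.1 kb RBFOX2 was the longest of the 18 genes with a cluster.

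**Figure D4:**
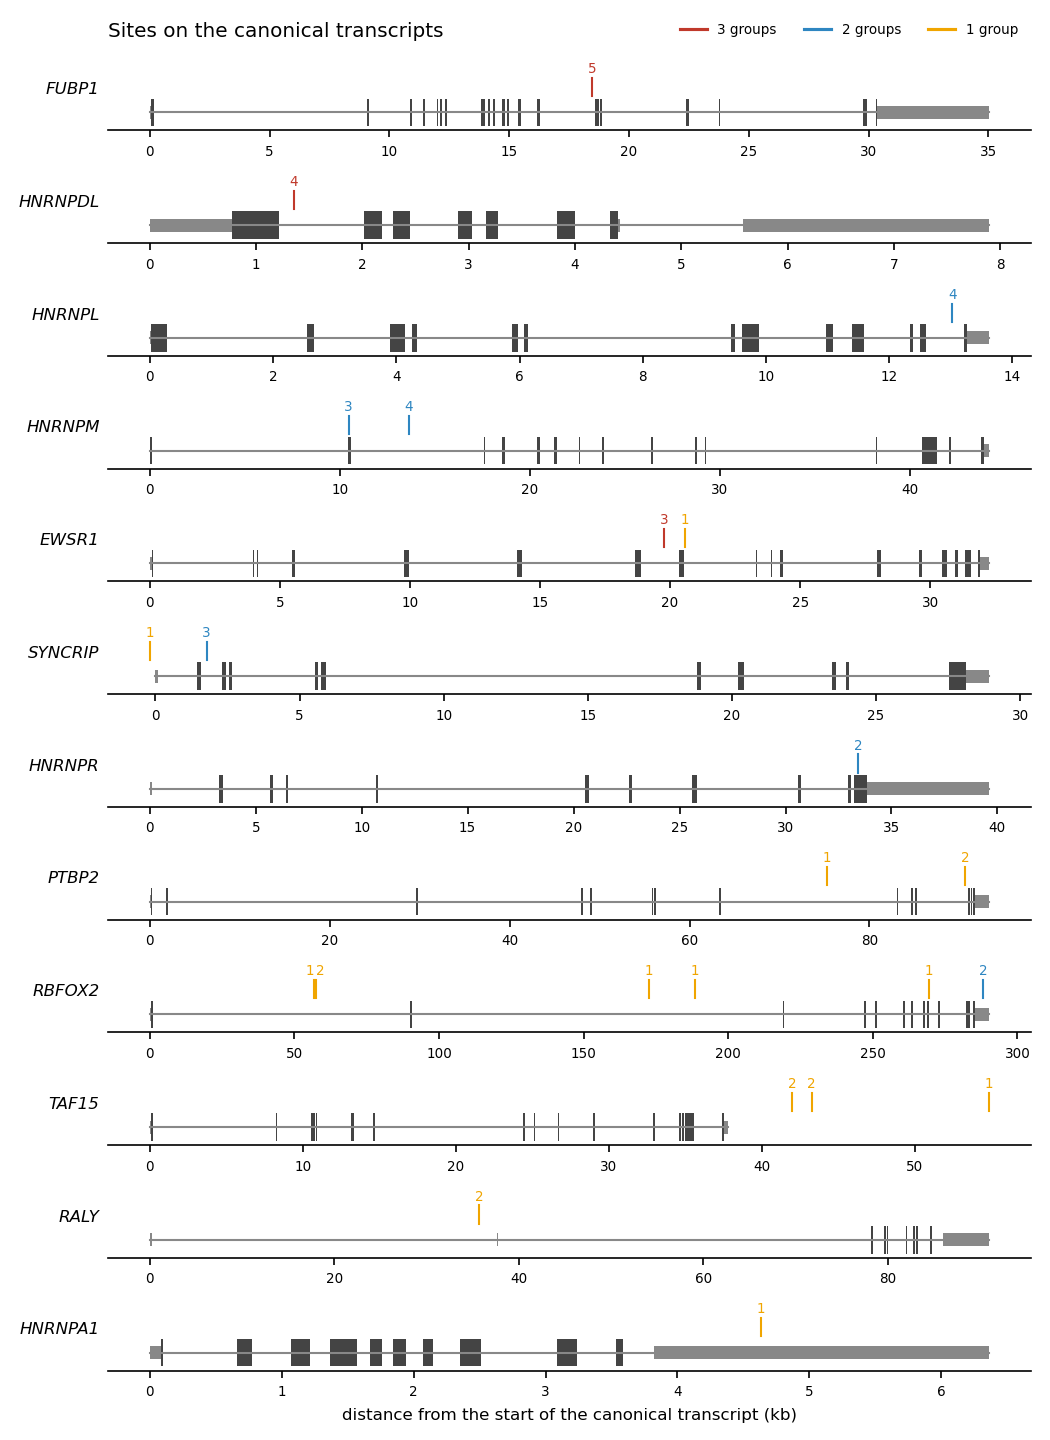
Sites on the canonical transcripts of the 12 genes with recurring sites or, for HNRNPA1, the transfected gene. The horizontal axis is the distance from the transcript start in kb, with a scale of its own for each gene. Tall dark boxes are coding sequence, low grey boxes untranslated exons and lines introns. Each coloured mark is a site, with the number of libraries that held it above it and the colour giving the number of groups. The TAF15 sites lie past the end of the canonical transcript.

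The sites found in both A1 libraries and in no other group were those of PTBP2, RALY, RBFOX2 intron 1 and 2 of TAF15. PTBP2, the neuronal paralog of the polypyrimidine tract binding protein, held its site 298 nucleotides before exon 12. PTBP2 also had a site in intron 8 in A1 replicate 2. RALY, a relative of hnRNP C, held its site in intron 1, 1910 nucleotides before exon 2. TAF15, a FET family protein like EWSR1, had its sites 4200 and 5481 nucleotides past the end of the canonical transcript, in introns of longer transcripts of the gene. Another TAF15 site, 17065 nucleotides past that end, was in A1 replicate 1. MBNL1, which binds expanded CUG repeats, had clusters in both A1 libraries but at different places, 1 in replicate 1 and 2 in replicate 2, all in intron 2.

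The transfected gene, HNRNPA1, had 1 cluster. It was in A1dm replicate 2 and in none of the 4 WT libraries, in the 3′ untranslated part of exon 11 of 11, and overlapped a long noncoding RNA gene on the same strand. Its sequence is shown because it differs from the sites above, with the longest purine run again in capitals.
HNRNPA1, chr12:54679127-54679156, plus strand: aagttcaaagctctgccAGGGAAtagaaac
The run measured 6 nucleotides, the purine content was 63.3% with 5 thymines, and the sequence occurred once in the reference. Whether the transfected plasmid reached into this part of the mRNA is not given in the sources used here, so plasmid and cellular transcripts cannot be told apart. HNRNPC, which binds uridine tracts, likewise had a single cluster, in intron 5 in A1-HMW replicate 1, and with a run of 10 it was the only other member cluster under 12.

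The remaining members with a cluster were each in A1 alone. HNRNPH2, a binder of G tracts, had a 5′ untranslated site in exon 1 in A1 replicate 2, which overlapped a readthrough gene on the same strand. HNRNPUL1, a relative of hnRNP U, had a site in intron 10 in A1 replicate 1. CELF1, which binds GU-rich elements, had one in intron 1 in A1 replicate 2, and MBNL2, a paralog of MBNL1, 2 in that library. The 24 members with no cluster by the naming rule were HNRNPA0, HNRNPA2B1, HNRNPA3, HNRNPAB, HNRNPD, HNRNPF, HNRNPH1, HNRNPH3, HNRNPK, HNRNPU, HNRNPUL2, FUBP3, KHSRP, PTBP1, PTBP3, TARDBP, ELAVL1, CELF2, QKI, PCBP1, PCBP2, KHDRBS1, MATR3 and ILF2. They included the closest relatives of hnRNP A1, HNRNPA2B1 and HNRNPA3. PTBP1 and PTBP3 had none while PTBP2 had 3 clusters, and FUBP3 and KHSRP had none while FUBP1 had 5.

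The naming rule left out clusters in a member gene that were named for a nearer start. Counting them gave 74 clusters in 43 regions, and brought in CELF2, ELAVL1 and HNRNPU with clusters in A1 libraries alone. A further TAF15 site, chr17:34182619-34182646, was in A1-HMW replicate 1 and both A1 libraries, and a further RALY site, chr20:32627970-32627994, in A1-HMW replicate 2 and A1 replicate 1. Both were intronic, and they added 2 regions shared by A1-HMW and A1. The other 21 members had no cluster anywhere in the gene.

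Recurrence was counted as regions found again. Of 8 member regions in A1dm, 0 were in both libraries, which was fixed in advance since A1dm replicate 1 held no member cluster. In the whole lists 4.28% of the 794 A1dm regions were in both. In A1-HMW the count of member regions in both libraries was 3 of 8 (37.5%, 95% Wilson interval 13.7 to 69.4%), against 9.95% of 1397 regions. In A1 it was 11 of 28 (39.3%, 23.6 to 57.6%), against 31.5% of 10574. The A1 value for members lay near that of all regions, and the A1-HMW value rested on the sites of FUBP1, HNRNPL and HNRNPM.

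Of the 28 A1 regions in member genes, 5 (17.9%, 7.88 to 35.6%) carried an A1dm cluster, against 3.59% of all A1 regions, and 6 (21.4%, 10.2 to 39.5%) an A1-HMW cluster, against 9.01%. In the other direction, 5 of 8 A1dm regions (62.5%) carried an A1 cluster, against 47.9% of all A1dm regions, and 6 of 8 A1-HMW regions (75%), against 68.1% of all A1-HMW regions. Most sites of the short lists in these genes were thus also in A1. These shares describe overlapping lists of unequal length and were not tested.

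By place on protein-coding transcripts, 2 of the 32 regions were coding, 3 were 3′ untranslated, 2 were 5′ untranslated and 25 were intronic, of which 4 lay in exons of retained-intron or noncoding transcripts. In A1dm replicate 2, 4 of 8 member clusters were exonic (50.0%, 95% Wilson interval 21.5 to 78.5%), those of HNRNPA1, HNRNPM, HNRNPR and RBFOX2. In A1-HMW 1 of 7 (14.3%) and 0 of 4 were exonic, and in A1 3 of 17 (17.6%) and 3 of 22 (13.6%). The lists as a whole differed in the same measure. Of the clusters that met the naming rule in any protein-coding gene, 32.1% and 29.7% were exonic in the A1dm libraries, 14.6% and 14.1% in those of A1-HMW and 11.9% and 11.8% in those of A1. The interval for the members in A1dm replicate 2 held the value of that whole library, 29.7%.

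Among members, the exonic share was 50.0% in the 1 A1dm library that could be used and averaged 15.6 ± 2.84% in A1 (SD, n = 2), a difference of 34.4 percentage points that has no replicate check. In A1-HMW it averaged 7.14 ± 10.1% and in A1 15.6 ± 2.84% (SD, n = 2 each), a difference of -8.50 points (exact permutation test, p = 0.667). The sign of the second difference depended on what was called an exon. It was 15.1 points with exons of retained-intron and noncoding transcripts counted as exonic, which moved the FUBP1, HNRNPL and PTBP2 sites to the exonic side, and 28.5 points by the annotation column of the lists.

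Distance to an exon was measured for the 23 regions by the naming rule that lay within introns of the canonical transcript. These leave out the recurring TAF15 sites and the SYNCRIP site before the start, which lie outside that transcript, and include 1 RBFOX2 region that is 5′ untranslated in transcripts with another start. The recurring regions had a shorter median distance than the single ones, which was not tested. The 9 recurring intronic regions had a median distance of 298 nucleotides to the nearest canonical exon, ranging from 116 to 32607, and 5 of them lay within 300. The 14 intronic regions seen in 1 library had a median of 10674, ranging from 55 to 46350, and 1 of them lay within 300, that of EWSR1 intron 8. Without the RBFOX2 region the single ones had a median of 7743. With every cluster in the gene body counted, which added a recurring region each of CELF2, ELAVL1 and RALY, the 12 recurring regions had a median of 1087 and the 18 single ones one of 10674. For the 6 recurring intronic regions by the naming rule with clusters of at least 2 groups the median was 167.5, with 4 within 300, those of FUBP1, HNRNPDL, SYNCRIP and HNRNPL.

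Over every protein-coding gene the same split was small. Recurring intronic regions (1633) had a median distance of 1945 nucleotides, with 15.2% within 300, and those in 1 library (2784) a median of 2202.5, with 12.9% within 300. The difference between members and all genes was not tested. The members with single sites included the longest of the 18 genes with a cluster, MBNL1, MBNL2 and RBFOX2, and the part of gene length in the distances was not tested.

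**Figure D5:**
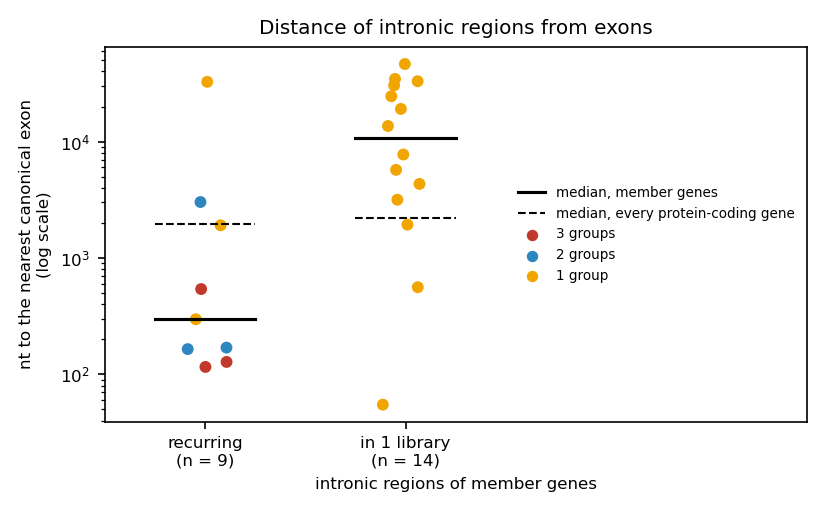
Distance in nucleotides from each intronic region of a member gene to the nearest exon of the canonical transcript (vertical axis, log scale), for recurring regions and regions in 1 library by the naming rule (horizontal axis, positions within a column are spread for legibility). Solid lines are the medians of the points (298 and 10674) and dashed lines the medians over every protein-coding gene (1945 and 2202.5). Colours give the number of groups with a cluster, and the regions with 3 groups lie at 116, 128 and 541.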

How the data were processed

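The deposited lists held 1 line for each cluster of a library, with its start, end, strand, annotation, nearest gene and a score. Per the file headers, the authors annotated a wavClusteR cluster file of each library with HOMER on hg19, and the deposited score was 0 in every line. In the methods, peaks come from PARalyzer and wavClusteR serves to look for T-to-C changes, so these clusters need not be the study's peaks. For A1-HMW and for A1dm the paper gives average peak numbers larger than the cluster numbers of these lists. For A1 it gives a peak number above that of either A1 list, without calling it an average. A site missing here may thus be among the study's peaks. STAR is given for mapping in the methods and Bowtie in the submitters' processing notes, with versions not given in the sources used here. The paper describes 2 independent experiments with all 3 bands. The labels do not say that a replicate number marks an experiment.

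The start in the identifier of a cluster was used, since the listed start lay 1 nucleotide higher in every line. Places in genes came from the GENCODE 44 annotation lifted to GRCh37, matched by gene identifier, or by name where the identifier had changed, and sequences from the GRCh37 genome, both used with Python 3.11.15, pandas 2.3.3 and scipy 1.17.1. A cluster counted as exonic in an exon of a protein-coding transcript and otherwise as intronic. The members and the list of other RNA-binding protein genes were chosen with earlier results of these data known. Genes were named with values where they had a cluster in A1dm or A1-HMW or in both A1 libraries, besides HNRNPA1, and the sites of HNRNPH2, HNRNPUL1, CELF1 and MBNL2 were added after their values had been seen. Shares carry Wilson intervals and were compared over libraries by exact permutation. The assignment step was run on simulated clusters placed with the same gene annotation. That run checks the step itself, not the placement of real clusters. The alternatives were the whole gene body, the name alone, HNRNPA1 left out, intergenic clusters left out of the denominator, the listed start, the overlap that joins clusters, regions found in both replicates, other exon definitions, the replicate block and each library left out.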

Additional observations from a re-analysis of the deposited data

How the results depend on the processing

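Of 111 alternatives, 99 kept the direction of a difference, or the size of a count, share or distance. No p could cross 0.05 in this design, so p-values bear on none of this. Among regions found in both replicates, 45.5% of the A1 regions carried an A1-HMW cluster, 100% of the A1-HMW regions carried an A1 cluster, and the A1dm share of clusters differed by -0.331 points from that of A1. No A1dm region in a member gene was in both replicates, so the overlap of such regions with A1 had no value. The exonic share of members in A1dm had none without A1dm replicate 2. Leaving out 1 library at a time moved the share difference over a range of -0.282 to 1.06 for A1dm minus A1 (negative without A1dm replicate 2), 0.180 to 0.761 for A1-HMW minus A1 and -0.753 to 0.589 for A1dm minus A1-HMW, which was 0.589 without A1dm replicate 1 and 0.209 without A1-HMW replicate 1. Member genes with a cluster ranged from 0 to 7 in A1dm (0 without A1dm replicate 2), 4 to 7 in A1-HMW (4 without A1-HMW replicate 1) and 11 to 15 in A1. The exonic share difference ranged from 32.4 to 36.4 points for A1dm minus A1 and from -15.6 to -1.36 for A1-HMW minus A1, and that contrast was 15.1 and 28.5 under the other exon definitions, which were chosen after seeing the data. Same-numbered libraries may share an experiment, which the labels do not state. Their deviations over 3780 genes correlated at -0.00966 (A1dm with A1), 0.00951 (A1-HMW with A1) and -0.00523 (A1dm with A1-HMW), and with the number as a replicate block the share differences were 0.389 for A1dm minus A1, 0.471 for A1-HMW minus A1 and -0.0817 for A1dm minus A1-HMW, with 0.5 as the smallest exact p. The lists did not give depth, 18 of 32 regions rested on 1 library, and all A1dm sites on A1dm replicate 2.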
